A study of Mus musculus with 6 samples.

Results

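The GADD45 genes (Gadd45a, Gadd45b and Gadd45g) and the BTG/TOB genes (Btg1, Btg2, Tob1 and Tob2) were followed in sorted mouse bone marrow cells with and without the transcription factors c-Myc and N-Myc. The members were all probe sets of the array whose annotation gave 1 gene symbol and that symbol was one of these families. This gave 17 probe sets of 45037 and 7 genes of 18193. Btg3, the remaining gene of the 8 sought, had no probe set annotated to it alone and entered no count.

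The sorted cells lacked lineage markers and carried Sca1, CD150 and CD48 on their surface. Their labels call them progenitors, but for control 1 the tissue field says LT-HSCs although its gate is the same. The double knockout (dKO) mice carried floxed c-myc and N-myc alleles together with MxCre, a recombinase driven by the interferon-responsive Mx1 promoter. Control mice carried the same floxed alleles without MxCre. Mice of both groups were 8 weeks old, on a mixed background, and had received 2 daily pI-pC injections, which induce interferon, with the last one 3 days before the cells were taken. Each group was measured on 3 arrays, with 3 mice pooled per dKO array and 2 per control array. Since MxCre was present only in the dKO mice, the transgene and the loss of the alleles cannot be told apart.

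GADD45 proteins are small stress-induced proteins without enzymatic activity that bind the kinase MAP3K4 upstream of p38 and JNK and, in the nucleus, PCNA, p21 and the CDK1 to cyclin B1 complex. BTG and TOB proteins share an amino-terminal domain through which they bind the CCR4-NOT deadenylases, and TOB proteins also bind the poly(A)-binding protein, which links them to the shortening of mRNA tails. Members of both families slow the cell cycle when overexpressed in many cell types, and in blood cells they are known from differentiation, quiescence and the response to stress. MYC proteins bind DNA with their partner MAX at E-box sequences and are known to repress some growth arrest genes, Gadd45a among them.

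The regions upstream of Gadd45b, Gadd45g and Btg2 are shown because these were the genes whose dKO arrays all lay above the control arrays. Each sequence runs 5′ to 3′ along the gene over the 250 bases before the start site that RefSeq gives (build GRCm38.p6), and capitals mark an E-box (CACGTG) in the first pair and a cAMP response element, CRE (TGACGTCA), in Btg2.
Gadd45b, chr10:80929841-80930090, plus strand: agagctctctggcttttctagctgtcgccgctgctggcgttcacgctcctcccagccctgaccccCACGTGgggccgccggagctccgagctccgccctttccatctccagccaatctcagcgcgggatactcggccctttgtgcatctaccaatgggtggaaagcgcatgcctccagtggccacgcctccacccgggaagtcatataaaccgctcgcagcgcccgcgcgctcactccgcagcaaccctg
Gadd45g, chr13:51846425-51846674, plus strand: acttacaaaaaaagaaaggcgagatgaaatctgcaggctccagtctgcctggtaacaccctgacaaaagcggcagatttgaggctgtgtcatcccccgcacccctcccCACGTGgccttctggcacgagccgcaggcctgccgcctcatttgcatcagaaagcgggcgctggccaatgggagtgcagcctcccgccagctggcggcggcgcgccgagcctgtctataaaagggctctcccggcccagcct
Btg2, chr1:134079156-134079405, minus strand: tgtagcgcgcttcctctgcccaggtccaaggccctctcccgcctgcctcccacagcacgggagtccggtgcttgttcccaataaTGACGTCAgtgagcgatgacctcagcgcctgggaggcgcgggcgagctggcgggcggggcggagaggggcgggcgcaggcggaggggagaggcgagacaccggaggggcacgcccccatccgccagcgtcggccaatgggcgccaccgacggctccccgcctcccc
Both motifs read the same on either strand. The E-box began 185 bases before the start of Gadd45b and 142 bases before that of Gadd45g, and the CRE began 166 bases before that of Btg2. An E-box stood in 6.02% and a CRE in 1.55% of the 32851 upstream windows of this length in the RefSeq table. The windows of Gadd45a, Btg1, Tob1 and Tob2 held neither sequence. The CCAAT box (CCAAT), TATA box (TATAAA) and GC box (GGGCGG) were also searched and are not marked. Each occurred in windows shown here and in windows of other members. Such a match describes the letters in the window, and binding was not measured.

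The arrays met the basic check of the design. Myc, measured by 1 probe set, fell by 2.97 on the log2 scale (limma, adjusted p = 0.000458). Of the 3 Mycn probe sets 1 fell by 5.27 (adjusted p = 0.00029), and the others differed by -0.83 and 0.34 and did not pass. Signals are RMA values on a log2 scale, with array medians between 5.90 and 5.94. Pools control 1 and dKO 1 carried signal of Xist, an RNA of female cells (10.57 and 11.32 at the brightest probe set, against 4.44 to 5.33 in the other pools), and results are also given without both. Of the sort markers, Cd48 averaged 11.23 on control arrays and 11.43 on dKO arrays, Slamf1, which encodes CD150, averaged 8.31 and 9.10, and neither passed the test (limma, adjusted p = 0.664 and 0.264), although Slamf1 had an unadjusted p of 0.047. The gene of Sca1, Ly6a, was not analysed here.

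Of the 7 genes, each read from the brightest of its probe sets, Gadd45b alone (1 of 7) passed the comparison of dKO with control at an adjusted p under 0.05, and it was higher in dKO. In the same limma test 5.97% of all genes passed, 3.12% higher and 2.85% lower, and a single gene among 7 gives little to read against that share. The dKO arrays all lay above the control arrays in 3 of the 7 genes, Gadd45b, Gadd45g and Btg2, against 12.7% of all genes, and in 0 genes did they all lie below, against 10.7%. All 7 log2 differences were above 0, with a median of 0.53, where 57.6% of all genes had a difference above 0 and the median of all genes was 0.05. Tob1 and Btg1 lay close to 0, and their sign turned in the fits named below.

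**Figure D1:**
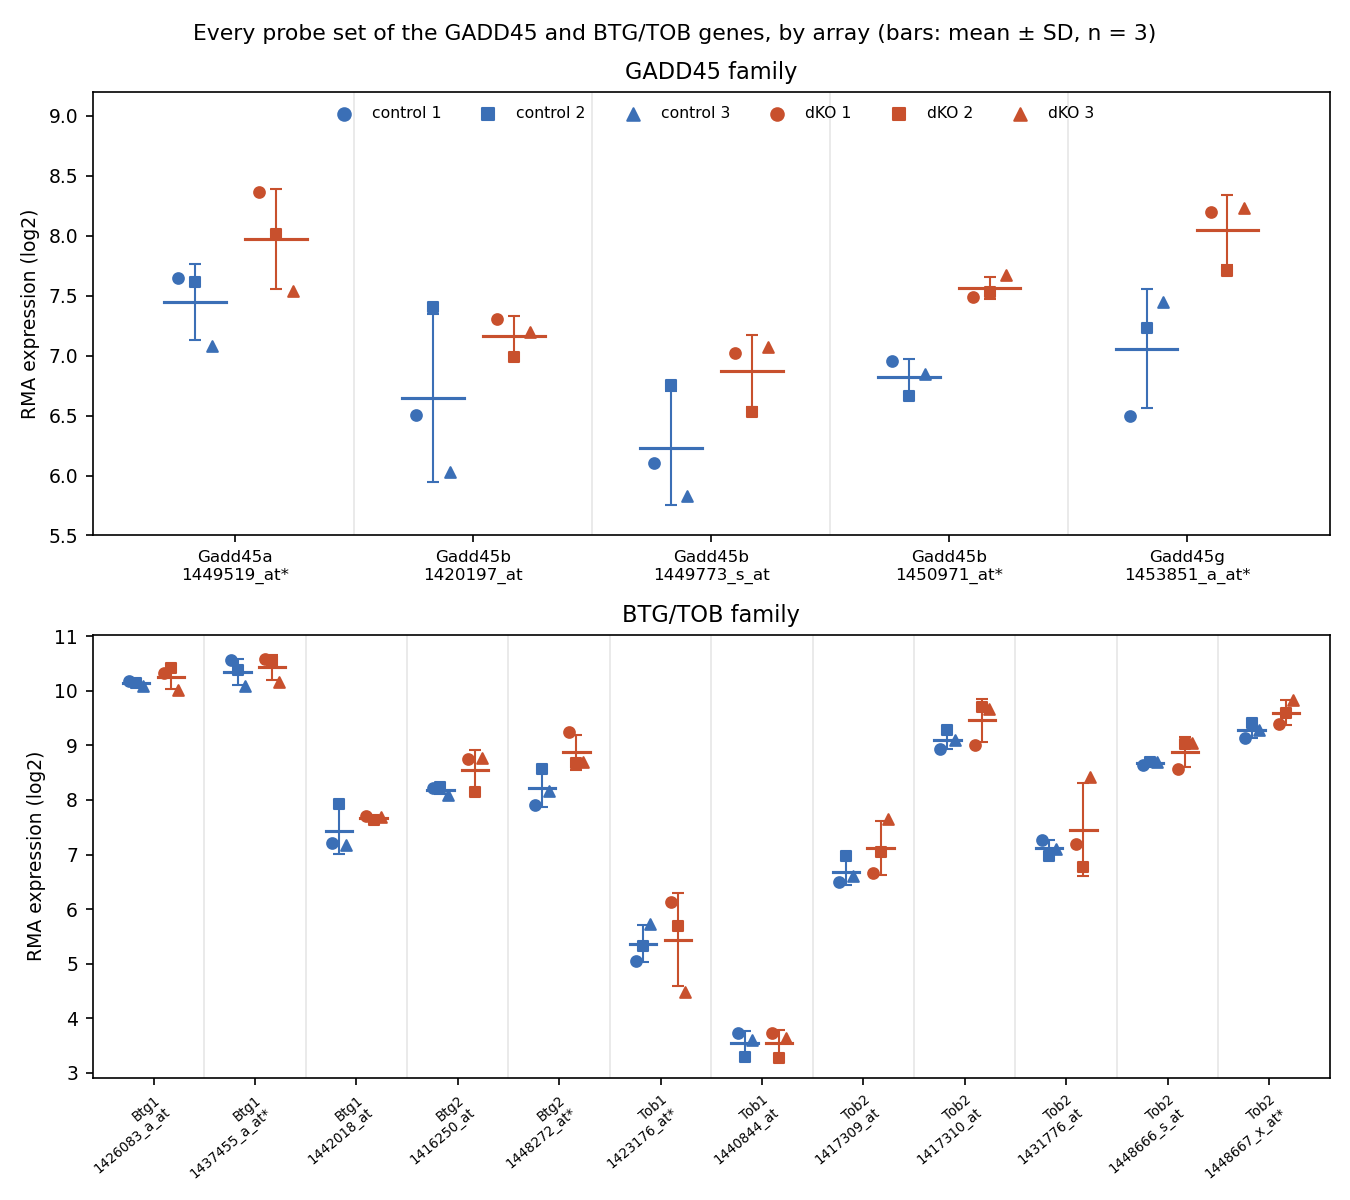
RMA expression (log2) of each probe set of the GADD45 family (upper panel) and the BTG/TOB family (lower panel) on the 3 control arrays (blue) and 3 dKO arrays (orange); horizontal lines and error bars are means ± SD, marker shapes give the array number, and an asterisk marks the probe set that stands for the gene. The groups are apart at 3 probe sets, 1 each of Gadd45b, Gadd45g and Btg2, and overlap at the other 14.

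Gadd45b, which is induced by NF-kB and TGF-beta signalling, rose in dKO at its brightest probe set. It stood at 6.96, 6.67 and 6.85 (log2) on control arrays 1, 2 and 3 and at 7.49, 7.53 and 7.67 on dKO arrays 1, 2 and 3. The dKO arrays were close to each other, and the lowest of them lay above the highest control. The difference was 0.74 ± 0.17 (SE), or 1.67-fold, with a 95% interval from 0.36 to 1.12 (limma, adjusted p = 0.0336), and it ranked 880th by p among the 1086 genes that passed. The other probe sets of the gene differed by 0.52 and 0.64, also upwards, but control 2 was high at both (7.40 and 6.75 against at most 6.50 and 6.10 in the other controls), so that the groups overlapped.

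The call of Gadd45b did not hold up to the removal of any array. Adjusted p ran from 0.0566, when dKO 3 was removed, up to 0.139, when control 2 was, although the difference itself stayed between 0.66 and 0.81. It was 0.84 with adjusted p = 0.138 without both Xist pools. With the mean of its 3 probe sets the gene differed by 0.63 (adjusted p = 0.109), and with p-values adjusted over all probe sets the same probe set had adjusted p = 0.0543. Of the 11 alternatives other than the removal of a single array, 8 kept the gene at an adjusted p under 0.05. Fewer of all genes also passed without a single array, down to 572 without control 2, against 1086.

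Gadd45g, a family member induced by cytokines and linked to differentiation, had the largest difference of the 7 genes but did not pass. Its single probe set stood at 6.50, 7.23 and 7.45 on the control arrays and at 8.20, 7.71 and 8.23 on the dKO arrays. The groups did not overlap, and control 1 was the low array of its group. The difference was 0.99 ± 0.27 (SE), or 1.98-fold, with a 95% interval from 0.38 to 1.59 (limma, adjusted p = 0.0679). The gene passed at adjusted p = 0.0409 when only genes at or above the median signal of all probe sets were tested, and the difference was 0.63 without both Xist pools (adjusted p = 0.384).

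Gadd45a, the p53-induced member of the family, overlapped between the groups. Its single probe set stood at 7.65, 7.61 and 7.08 on the control arrays and at 8.37, 8.02 and 7.54 on the dKO arrays. In both groups array 3 was the lowest, and dKO 3 lay below controls 1 and 2. The difference was 0.53 ± 0.25 (SE) with a 95% interval from -0.04 to 1.10 (limma, adjusted p = 0.318). It ran from 0.33 without dKO 1 to 0.75 without dKO 3.

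Btg2, a p53 target that is also an immediate early gene, was measured by 2 probe sets that differed in their order of arrays. The brighter stood at 7.90, 8.57 and 8.17 in control and at 9.25, 8.68 and 8.69 in dKO. The groups did not overlap, but dKO 2 and dKO 3 were only just above control 2. The difference was 0.66 ± 0.24 (SE), or 1.58-fold, with a 95% interval from 0.13 to 1.19, and the gene did not pass (limma, adjusted p = 0.164). At the other probe set controls stood at 8.22, 8.24 and 8.09 and dKO arrays at 8.75, 8.15 and 8.77. There dKO 2 lay among the controls, and the difference was 0.37. Without both Xist pools the brighter probe set differed by 0.32 (adjusted p = 0.754).

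Btg1, a member known from quiescent lymphocytes, was nearly level between the groups. Its brightest probe set stood at 10.57, 10.39 and 10.09 in control and at 10.58, 10.55 and 10.16 in dKO. In both groups array 1 was the highest and array 3 the lowest, and the groups covered almost the same range. The difference was 0.08 ± 0.20 (SE), and its 95% interval from -0.37 to 0.53 leaves out a change of 2-fold in either direction (limma, adjusted p = 0.899). The other 2 probe sets differed by 0.11 and 0.24, and without control 3 the brightest differed by -0.05.

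Tob1, which binds SMAD proteins as well as the deadenylases, gave no stable direction. Its brighter probe set stood at 5.04, 5.33 and 5.73 in control and at 6.13, 5.70 and 4.49 in dKO. The dKO arrays held both the highest and the lowest value of all 6, with dKO 3 the lowest. The difference was 0.07 ± 0.38 (SE) with a 95% interval from -0.79 to 0.93 (limma, adjusted p = 0.959), and it ran from -0.28 without dKO 1 to 0.55 without dKO 3. The other probe set was among the dimmest of the array (14.8th percentile of all probe sets), and its means of 3.54 in control and 3.54 in dKO differed by less than 0.01 (difference 0.0048); the sign turned to -0.059 under repeated quantile normalization and -0.067 under cyclic loess.

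Tob2, the close relative of Tob1, was measured by 5 probe sets with differences of 0.20 to 0.43. The brightest stood at 9.14, 9.42 and 9.28 in control and at 9.39, 9.59 and 9.83 in dKO. There 2 of the 3 dKO arrays lay above all controls, while dKO 1 lay below control 2. The difference was 0.33 ± 0.18 (SE) with a 95% interval from -0.09 to 0.74, which leaves out a change of 2-fold (limma, adjusted p = 0.418). At the probe set with the widest dKO spread a single array set the difference. Controls stood there at 7.26, 6.98 and 7.11 and dKO arrays at 7.19, 6.77 and 8.42, and without dKO 3 the difference was -0.14.

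**Figure D2:**
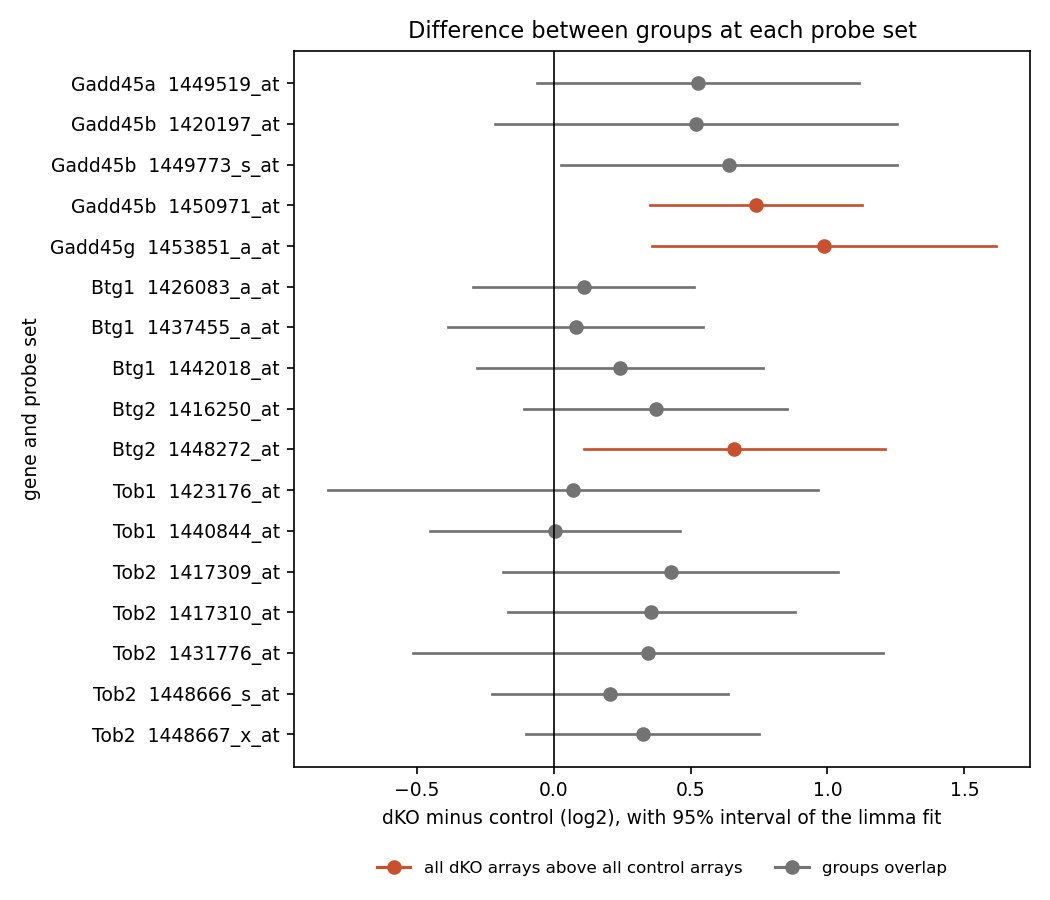
Difference between dKO and control (log2) at each of the 17 probe sets, with the 95% interval of the limma fit over all probe sets; orange marks probe sets whose groups do not overlap. All 17 points lie at or above 0, and 4 intervals leave out 0: 2 of Gadd45b and 1 each of Gadd45g and Btg2.

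At the level of probe sets 0 of the 17 passed in either direction by limma adjusted over all probe sets, against 3.6% of all probe sets, 1.83% higher and 1.78% lower. At an unadjusted p under 0.05 there were 4 of 17 (23.5%), against 15.9% of all probe sets. The groups did not overlap, with dKO above, at 3 of 17 (17.6%), against 10.7% of all, and with dKO below at 0, against 10.6%. The 17 differences were all above 0, with a median of 0.36 against 0.03 over all probe sets, of which 54.2% were above 0, and the sign of the dim Tob1 probe set turned under quantile normalization and cyclic loess. Probe sets of 1 gene share their transcript, so 17 probe sets are not 17 separate measurements.

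The ranges of the families overlapped. The 3 GADD45 genes had differences from 0.53 to 0.99, and the 4 BTG/TOB genes from 0.07 to 0.66, of which Btg2 alone was above 0.33. The families were not tested against each other. Within the dKO group, dKO 3 was the highest array at 8 of the 17 probe sets and the lowest at 4, and dKO 2 was the highest at 2 and the lowest at 8. Over all probe sets dKO 3 was the highest of its group at 42.0% and dKO 2 the lowest at 36.6%. The members' SD over dKO pools ran from 0.04 to 0.86 with a median of 0.29, near the median of 0.27 over all probe sets.

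**Figure D3:**
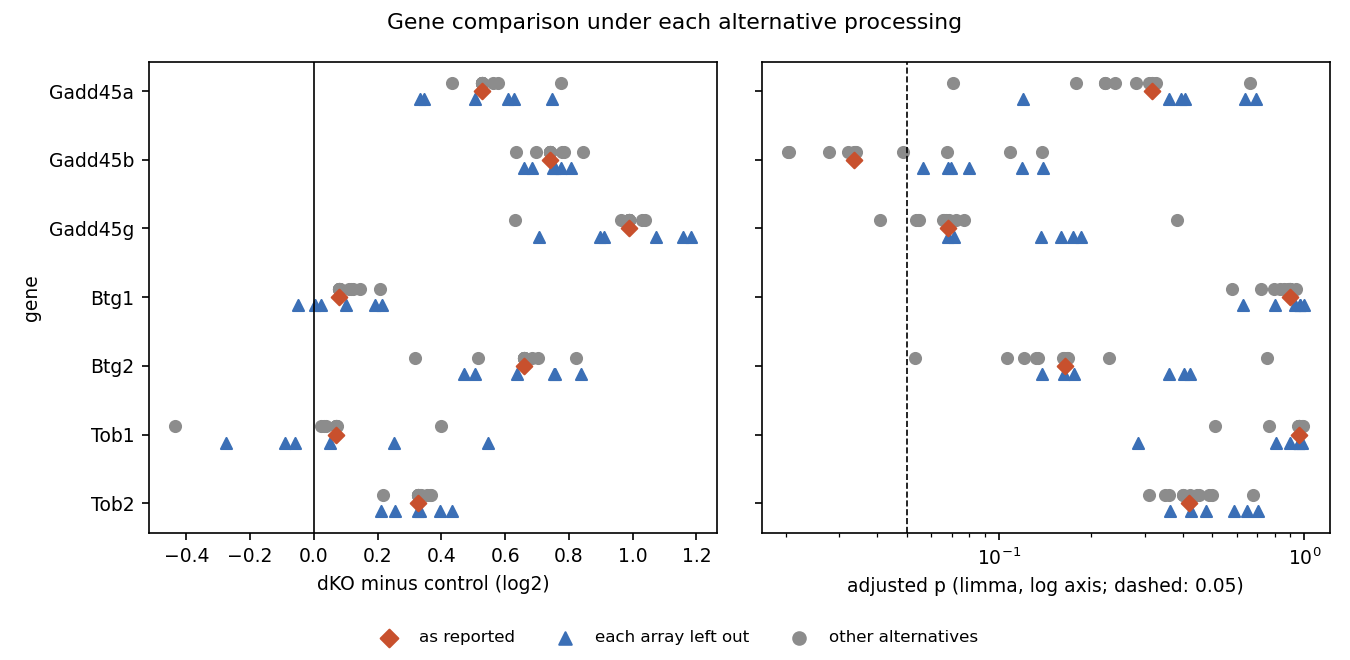
Difference (log2, left) and adjusted p (right, log axis) of each gene as reported (diamonds), with each array left out (triangles) and under the other alternatives (circles); the dashed line is an adjusted p of 0.05. Gadd45b lies left of that line in the fit as reported and right of it whenever an array is left out, and Tob1 spreads on both sides of 0, from -0.44 to 0.55.

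Among the kinases that GADD45 proteins act through, 0 of 10 measured genes passed by limma (2 at an unadjusted p under 0.05), with a median of 0.07. Of all genes 18.2% had an unadjusted p under 0.05 in the same test, the share to set beside such counts here and in the lists below. The smallest p-values were those of Map2k6, an activator of p38, which differed by -1.03 ± 0.28 (SE; adjusted p = 0.0666), and Map2k4, an activator of JNK, which differed by 0.44 ± 0.16 (adjusted p = 0.181). The kinase gene Map3k4, the direct partner, differed by -0.27 ± 0.21 (adjusted p = 0.581). Of the 5 measured nuclear partners 1 rose and 0 fell by limma (2 at an unadjusted p under 0.05), with a median of 0.02. That gene was Cdkn1a, which encodes the CDK inhibitor p21. It stood at 5.91, 7.40 and 6.21 in control and at 10.78, 10.10 and 10.67 in dKO, far apart in every array. The difference of 4.01 ± 0.36 (SE; limma, adjusted p = 0.000457) exceeded that of every member. Pcna, the replication clamp, and Cdk1, the mitotic kinase, differed by 0.18 and 0.02 and did not pass. Npm1, another of these partners, differed by -0.51 with all dKO arrays below the controls, and did not pass (limma, adjusted p = 0.114).

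On the side of BTG/TOB, the deadenylation genes leaned the other way from the members. Of 14 measured genes 2 fell and 0 rose by limma (4 at an unadjusted p under 0.05), with a median of -0.30. Of the 14 differences 12 were below 0, as were 7712 of all 18193. Pabpc1, the main poly(A)-binding protein, stood at 11.68, 11.90 and 11.90 in control and between 10.87 and 11.10 on the 3 dKO arrays. All dKO arrays were lower, and the difference was -0.84 ± 0.17 (SE; limma, adjusted p = 0.0193). Pan2, the catalytic subunit of a separate deadenylase, stood at 7.72, 7.88 and 7.69 in control and at 7.20, 6.94 and 6.85 in dKO. It fell by 0.77 ± 0.17 (adjusted p = 0.0322). The direct partners of the BTG domain, Cnot7 and Cnot8, differed by -0.38 and -0.30 and did not pass. Pabpc4 had the largest difference of this list, -0.88, with all dKO arrays below the controls, but did not pass (limma, adjusted p = 0.0847). Pan2 lost its call without any single array except dKO 1, at adjusted p up to 0.132 without control 2, and Pabpc1 without control 2 (0.0868), control 3 (0.0919) or dKO 1 (0.0736). With the mean of its probe sets Pabpc1 had adjusted p = 0.0723, and without both Xist pools Pan2 and Pabpc1 had 0.111 and 0.126.

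Of 5 other BTG/TOB partners 1 fell and 0 rose by limma (2 at an unadjusted p under 0.05), with a median of -0.16. The gene that fell was Smad1, a signal transducer of bone morphogenetic proteins. Smad1 stood at 9.35, 9.46 and 9.21 in control and at 8.31, 8.74 and 8.52 in dKO, lower on every array, a difference of -0.81 ± 0.18 (SE; limma, adjusted p = 0.0305). It kept its call without dKO 2 alone among the single arrays, with adjusted p up to 0.126 without control 2, and did not keep it with the mean of its probe sets (0.0568) or without both Xist pools (0.253). Smad4 differed by -0.60 with all dKO arrays below the controls, and did not pass (limma, adjusted p = 0.121). Prmt1, the arginine methyltransferase that binds BTG1 and BTG2, differed by -0.14 and did not pass.

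Of 10 measured genes that are known to regulate the members, 2 rose and 0 fell by limma (3 at an unadjusted p under 0.05). Their median was 0.16. Egr1, an immediate early transcription factor, stood at 7.06, 8.19 and 7.49 in control and at 11.61, 10.98 and 11.21 in dKO. The groups were far apart, and the difference was 3.68 ± 0.29 (SE; limma, adjusted p = 0.000223). Stat3, a cytokine-activated transcription factor, rose by 0.78 ± 0.17 (adjusted p = 0.028), from 8.53, 8.70 and 8.48 to 9.26, 9.28 and 9.53. It kept its call without dKO 3 alone among the single arrays, with adjusted p up to 0.125 without control 3, and with the mean of its 4 probe sets the difference was 0.41 (0.152). Without both Xist pools its adjusted p was 0.167. Smad3 differed by 0.45 with all dKO arrays above the controls, and did not pass (limma, adjusted p = 0.23). Foxo3 and Rela differed by -0.20 and 0.15 and did not pass. Some listed genes, Trp53 and Nfkb1 among them, were not analysed here, since no probe set was named for them alone.

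**Figure D4:**
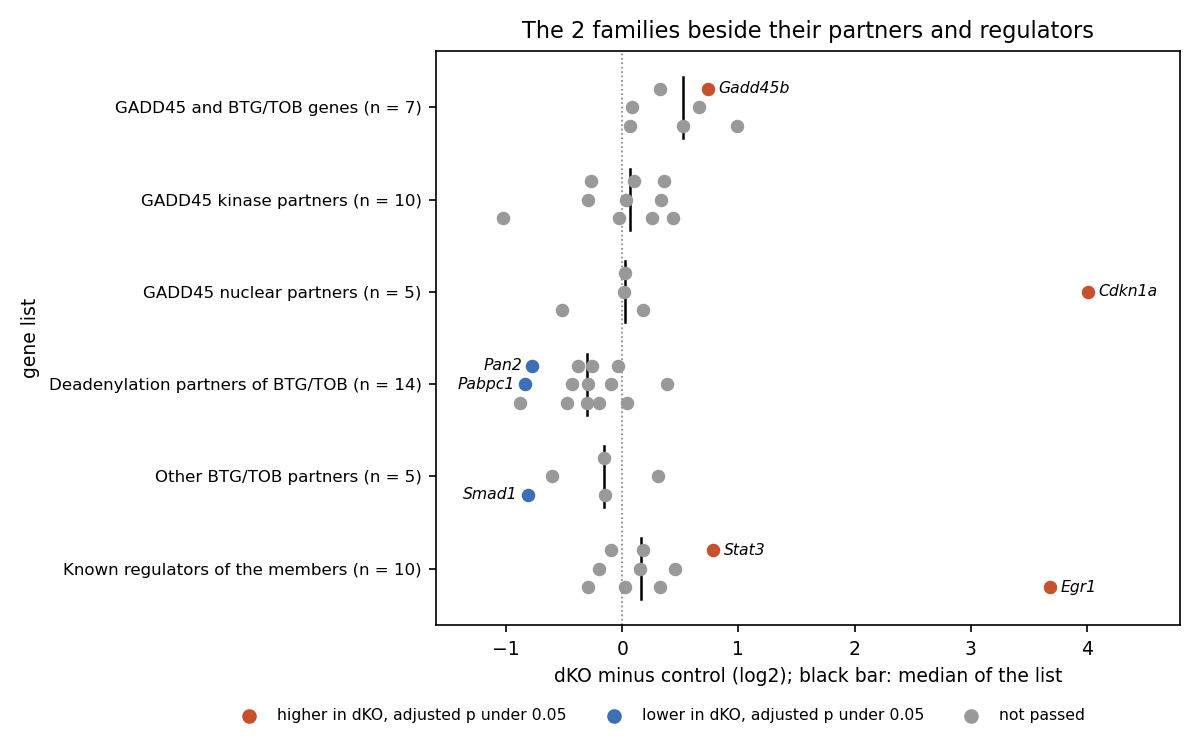
Difference between dKO and control (log2) of the 7 GADD45 and BTG/TOB genes and of the measured genes in the lists of their partners and regulators; each point is a gene, black bars are medians, and named points in orange or blue passed the test upwards or downwards. Cdkn1a (4.01) and Egr1 (3.68) lie far to the right of all members, and the deadenylation list is centred below 0 at -0.30.

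For the 3 members with the largest differences, the genes with the most similar profile over the 6 arrays were listed as a description among 9091 genes at or above the median signal of all genes. Nearest to Gadd45b were F2rl3, a thrombin receptor of platelets (Pearson r = 0.9945), the beta-actin gene Actb (0.9937) and the potassium channel gene Kcnk5 (0.993). Nearest to Gadd45g were Snrnp27 (0.992), Ddx11 (0.991) and the immediate early gene Ier2 (0.990), and nearest to Btg2 were Kat6a (0.996), Atat1 (0.990) and Zc3h18 (0.988). These are the highest of many correlations over only 6 arrays in 2 groups, so no p is given.

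Markers of other cell types differed between the same groups. In dKO 6 of 8 measured T and NK cell markers, 4 of 5 megakaryocyte markers and 3 of 4 mast cell and basophil markers were higher, 0 were lower, and 3 of 7 monocyte and granulocyte markers were lower with 0 higher. Averaged over each list in log2, T and NK markers ran from 6.19 to 6.82 on the control arrays and from 8.01 to 8.18 on the dKO arrays, and megakaryocyte markers from 7.55 to 8.03 and from 9.49 to 9.76. Mast cell and basophil markers ran from 6.73 to 7.02 and from 8.29 to 9.51, and monocyte and granulocyte markers from 7.83 to 8.41 and from 6.50 to 7.16. Of the 5 B cell markers and the 3 erythroid markers 0 passed by limma (0 and 3 at an unadjusted p under 0.05), with means of 5.34 to 5.72 against 5.63 to 5.88 and of 7.25 to 7.67 against 8.10 to 8.64. RMA lists no gene at 0, so no marker can be called absent. The part of these cell types in the values of Gadd45b, Gadd45g and Btg2 was not tested, and in sorted bulk samples more cells of a type cannot be told apart from more RNA per cell.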

How the data were processed

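The authors deposited log2 values made with RMA, per the submitters' processing notes ; array quantiles differ slightly, dKO 3 most; the version is not given in the sources used here. Per the labels' protocols, RNA was amplified in 2 rounds with a Nugen kit. No other per-sample measure was used, and the number of arrays limits the precision.

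After leaving out 64 control probe sets, 34945 had 1 gene symbol, 932 several and 9160 none; 34741 probe sets were matched by gene identifier to a RefSeq table (GRCm38.p6), whose symbols were used. Each gene was read from whichever of its probe sets was brightest on average. Groups came from the titles. dKO was compared with control with limma (version 3.58.1, R 4.3.3), with group as the sole term of its moderated linear model. Two-sided p-values were adjusted by the Benjamini-Hochberg method over 18193 genes, or over 45037 probe sets, and called under 0.05. Errors are over separate pools of mice. The limma step was tested on simulated data with planted changes of 2-fold or more. The smallest of them was close to the 1.98-fold difference of Gadd45g and larger than those of the other members. That test does not show how well differences of the size of those other members are found. Motifs were searched on both strands of the 250 bases before the start. Partner genes named are those past the threshold, or the 2 with the smallest p where none passed. Map3k4, Pcna, Cdk1, Npm1, Cnot7, Cnot8, Pabpc4, Prmt1, Smad4, Foxo3, Rela, Smad3, Cd48 and Slamf1 were chosen with values already known. The members, lists and alternatives were chosen with earlier results of these data known. Same-numbered arrays' deviations from their group means correlated at 0.0619, -0.0347 and 0.0056. With so few arrays this cannot settle whether the replicate numbers in the titles pair them. The pools with Xist signal, control 1 and dKO 1, share a number. The main model left the numbers out, and a fit with them as a block is given among the alternatives. Figures used matplotlib 3.10.9.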

Additional observations from a re-analysis of the deposited data

Results flagged for a closer look

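A probe set outside every count above, because it is annotated to both Btg3 and the transcribed pseudogene Gm7334, carried a signal that was higher in dKO than on any control array. It stood at 8.08, 7.83 and 8.31 (log2) in control and at 9.77, 9.49 and 9.09 in dKO, a difference of 1.37 ± 0.23 (SE), or 2.59-fold (limma, adjusted p over all probe sets = 0.0151). Adjusted p was 0.0724 without control 2, 0.05 without dKO 1, 0.0522 without dKO 2 and 0.117 without both Xist pools, with differences of 1.25, 1.21, 1.35 and 1.22. Which of the genes it measured was not tested. No group had enough arrays for a check of outlying samples.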

How the results depend on the processing

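Gadd45a, Gadd45b, Gadd45g, Btg2 and Tob2, each by its brightest probe set, stayed above 0 under every alternative run. The number of member genes higher in dKO was 0 with the mean of probe sets, with the replicate block (Gadd45b adjusted p = 0.0674), without both Xist pools and without any single array (range 0 to 0), and 2 with the filter on dim values or at an adjusted p of 0.1, Gadd45g being added; the count of lower member genes was 0 throughout. Member probe sets higher in dKO numbered 1 with the dim filter, cyclic loess, array weights or an adjusted p of 0.1. All genes changed numbered 1697 with array weights, 578 without both Xist pools and 572 to 1081 without single arrays, against 1086. For probe sets the numbers were 2509, 565 and 661 to 1472, and 2666 at an adjusted p of 0.1, against 1622. The replicate block gave 999 genes and 1252 probe sets, and it also ended the calls of Pan2 (adjusted p = 0.0624) and Stat3 (0.061). Of the same-numbered arrays, only control 1 and dKO 1 correlated best with each other. Control 2 correlated best with dKO 3, and control 3 with dKO 2. The sign of Tob1 turned to -0.44 without both Xist pools and ranged from -0.28 to 0.55 without single arrays, that of its dim probe set to -0.059 (quantile normalization) and -0.067 (cyclic loess) and from -0.12 to 0.14. Without single arrays Btg1 ranged from -0.050 to 0.21 and the most variable Tob2 probe set from -0.14 to 0.69. Under the dim filter Tob1 fell below the signal limit and has no value. The causes were not tested.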
